A study of Homo sapiens with 6 samples.

Results

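The entries described here are 10 rows of the expression tables that carry the name of a microRNA gene, followed across all 6 libraries of the series. They were chosen by symbol, as entries that start with MIR and a number, and are MIR22, MIR296, MIR378D2, MIR5196, MIR6732, MIR6773, MIR6822, MIR7704, MIR7855 and MIR8085. These are 10 of 1113 listed entries and of the 771 entries that carry a gene symbol. MIR497HG, a host transcript whose symbol begins in the same way, is not counted among them. The series compares ES2, a human cell line labelled as epithelial ovarian cancer, in 2 groups of 3 libraries. One group received a control antisense oligonucleotide (control ASO) and the other an oligonucleotide directed at RUNX1-IT1 (RUNX1-IT1 ASO), a non-coding RNA made from an intron of RUNX1. Such oligonucleotides base-pair with their target, and many of them lead to its cleavage. All libraries come from this 1 cell line, and the labels give no dose, no time after treatment and no statement that the replicates were separate cultures.

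A microRNA gene is first transcribed as part of a longer RNA, the primary transcript, in which the microRNA lies in a folded hairpin. DROSHA with DGCR8 cuts the hairpin out in the nucleus, DICER1 trims it in the cytoplasm, and the mature strand guides an Argonaute protein to target RNAs through its seed near the 5′ end. In hairpins named mirtrons the splicing reaction takes the place of the first cut, so that an end of the hairpin is also an end of an intron. The labels describe mRNA-focused sequencing of total RNA, and mature microRNAs carry no poly(A) tail. The values below are therefore read as levels of longer RNA assigned to these entries, not of mature microRNAs.

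The mature strands of the entries with the highest level, the greatest decrease and the increase are shown to identify the microRNAs that the entries are named for, with the seed (bases 2 to 8) in capitals. They come from RefSeq on GRCh38.p14, where 9 of the 10 entries matched with 15 mature strands of 19 to 24 bases.
hsa-miR-22-3p: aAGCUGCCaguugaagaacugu
hsa-miR-22-5p: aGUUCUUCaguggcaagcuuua
hsa-miR-8085: uGGGAGAGaggacugugaggc
hsa-miR-6732-5p: uAGGGGGUggcaggcuggcc
hsa-miR-6732-3p: uAACCCUGuccucucccucccag
hsa-miR-5196-5p: aGGGAAGGggacgaggguuggg
hsa-miR-5196-3p: uCAUCCUCgucucccucccag
hsa-miR-296-3p: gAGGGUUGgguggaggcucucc
hsa-miR-296-5p: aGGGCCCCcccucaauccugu
The 15 strands had 15 different seeds, so no seed group could be formed within the set. Against 2370 mature names of the RefSeq table used, miR-5196-5p shared its seed with miR-4747-5p, and miR-8085 shared its seed with miR-6731-5p. The seeds of the other 7 strands shown matched no other of these names.

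In GENCODE release 29 on GRCh38, 4 of the 10 hairpins lie whole within an exon in every transcript of their host on the same strand, and 6 lie at the 3′ end of an intron of at least 1 transcript. MIR22 (chr17:1713903-1713987, minus strand, 85 bases) lies in an exon of MIR22HG, a non-coding host gene, in all 19 of its annotated transcripts. MIR296 (chr20:58817615-58817694, minus strand, 80 bases) lies in the 1 transcript of the lincRNA AL132655.2, and MIR378D2 (chr8:93916022-93916119, minus strand, 98 bases) in the 1 transcript of the lincRNA AC084346.2, opposite an intron of PDP1, a phosphatase gene of pyruvate metabolism. MIR7704 (chr2:176188843-176188901, plus strand, 59 bases) lies within the coding sequence of HOXD1, a homeobox transcription factor, and on the other strand overlaps HAGLR, a long non-coding RNA of the HOXD cluster. Reads of MIR378D2 and of MIR7704 cannot be told apart from those of the opposite strand where the counting did not use strand.

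Each of the other 6 is hosted by a protein-coding gene. MIR6732 (chr1:37480230-37480289, plus strand, 60 bases) ends on the last base of an intron of ZC3H12A, an RNase that degrades inflammatory mRNAs. MIR6773 (chr16:68233426-68233499, minus strand, 74 bases) ends on the last base of an intron of ESRP2, an epithelial splicing regulator. MIR6822 (chr3:39138206-39138266, plus strand, 61 bases) does so in TTC21A, a tetratricopeptide repeat gene. MIR8085 (chr19:44758657-44758721, plus strand, 65 bases) ends 2 bases before the end of an intron of BCL3, a nuclear member of the IkB family. MIR7855 (chr14:64785626-64785686, minus strand, 61 bases) runs 2 bases into the next exon of SPTB, the beta spectrin of red blood cells. MIR5196 (chr19:35345513-35345627, plus strand, 115 bases) runs 26 bases into a coding exon of CD22, an inhibitory receptor of B cells. Some transcripts annotated as retaining the intron cover the hairpin of MIR6732 (1 of 3 transcripts), MIR6773 (2 of 9) and MIR8085 (2 of 5) whole.

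The hairpins that reach the end of their intron are shown because this shared feature was not part of the rule that chose them. They are RefSeq hairpins on GRCh38.p14, at the coordinates above, and the capitals mark the last pair of intron bases.
MIR6732: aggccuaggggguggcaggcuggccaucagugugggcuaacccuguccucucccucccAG
MIR6773: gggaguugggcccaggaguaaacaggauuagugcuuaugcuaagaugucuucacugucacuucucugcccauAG
MIR6822: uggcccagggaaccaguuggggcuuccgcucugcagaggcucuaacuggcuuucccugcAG
MIR7855: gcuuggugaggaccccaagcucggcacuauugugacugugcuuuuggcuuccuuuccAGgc
MIR5196: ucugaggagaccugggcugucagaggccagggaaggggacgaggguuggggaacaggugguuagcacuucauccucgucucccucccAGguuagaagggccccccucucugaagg
The intron's AG closes the hairpin of MIR6732, MIR6773 and MIR6822, and stands 2 and 26 bases before the end in MIR7855 and MIR5196. Among all 1881 microRNA genes of GENCODE release 29, 270 (14.4%) hold the last base of an intron or end within 2 bases of it, against 6 of the 10 listed here (60%). This is a count over a small set with no test, and 10 of 10 listed hairpins but 67.3% of all microRNA genes lie inside a transcript of their own strand.

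**Figure D1:**
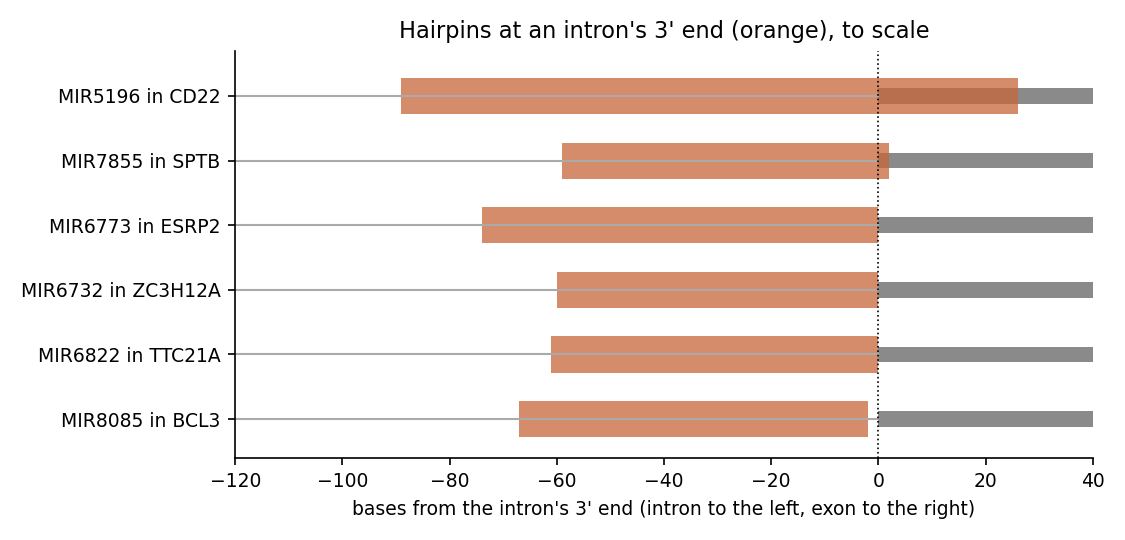
The 6 hairpins at an intron's 3′ end, drawn to scale in bases from that end, with the intron as a thin grey line on the left, the exon as a grey bar on the right and the hairpin in orange. MIR6732, MIR6773 and MIR6822 end at 0, MIR8085 ends 2 bases short of it, and MIR7855 and MIR5196 reach 2 and 26 bases into the exon.

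None of the 10 host genes is listed in the tables used here, nor is either gene on the opposite strand (HAGLR and PDP1). No value of a microRNA entry could therefore be set beside the value of its host, and the share of the host level was not computed. The same held outside the set. Of 694 other listed entries with 1 gene in GENCODE release 29, 19 lie inside another gene of the same strand, and in 0 of these was the containing gene listed as well. In the other direction, 21 of 597 listed protein-coding genes (3.52%) hold a microRNA gene on their strand, against 4.67% of the 19343 other protein-coding genes, and none of the 10 entries lies in any of those 21. For each of the 10 entries, the tables used here hold the name of the hairpin and not that of its host. The entry of this name form that is not reported was left out of the counts of nested entries. With 597 protein-coding genes listed beside 19343 others, an unlisted partner is the common case for any gene. These counts therefore do not show how reads were assigned. Whether a microRNA entry holds reads of the hairpin alone or also reads of its host cannot be told apart.

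Control ASO libraries summed to 80.3, 77.9 and 79.5 CPM (counts scaled to library size) over the 10 entries, and RUNX1-IT1 ASO libraries to 34.0, 34.2 and 36.5 CPM. Means of 9 entries were lower under the RUNX1-IT1 ASO, by 2.02-fold (MIR8085) to 6.31-fold (MIR5196), and MIR296 was 2.28-fold higher. In limma on log2(CPM + 1), 9 of the 9 entries that averaged 1 CPM or more fell at a Benjamini-Hochberg adjusted p under 0.05, though 6 of these turned positive when the libraries were rescaled to equal totals over the listed entries. Of all 489 entries tested in the same fit, 97.5% were called lower and 2.04% higher, so the share of microRNA entries that fell is close to the background. The tables list 1081 entries with a lower and 32 with a higher mean, the smallest difference being 1.99-fold, so the lists appear to hold only entries picked for a difference in these libraries. For that reason an adjusted p of a single entry is not independent evidence of a change. Listed totals were 10175 to 11070 CPM under the control ASO and 3628 to 3894 CPM under the RUNX1-IT1 ASO. Rescaling to equal totals therefore sets each entry against the fall of the listed entries as a whole. An entry that fell by less than these totals turns positive, so a call after rescaling is no test of a rise.

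**Figure D2:**
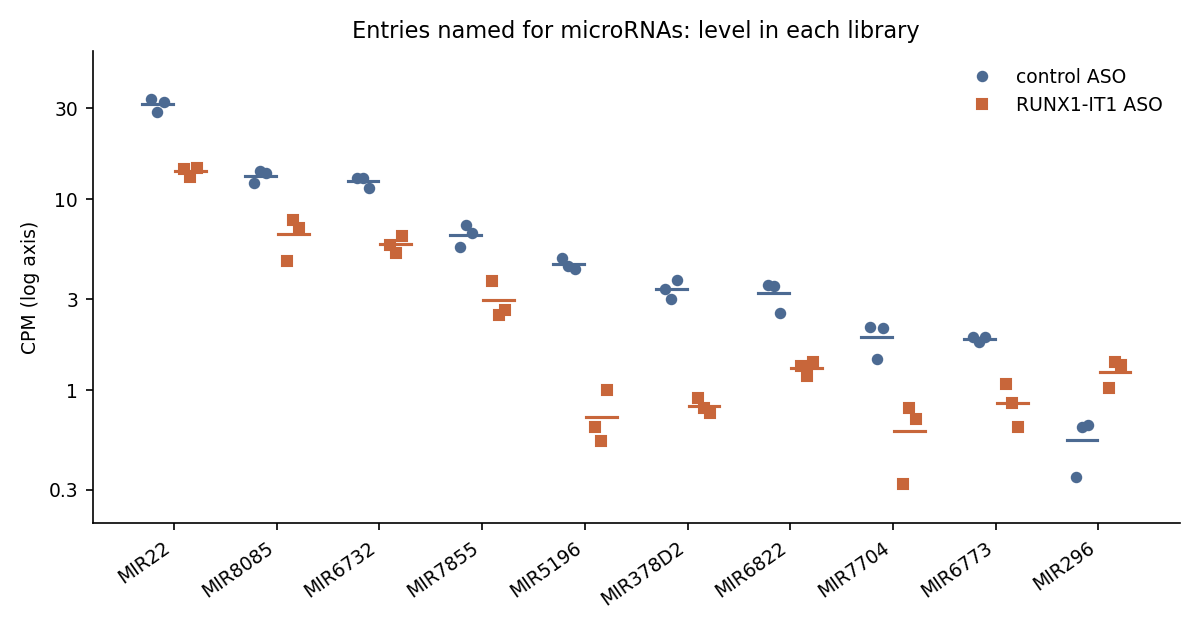
Level of each entry in each library, in CPM on a log axis. Points are libraries (3 per group) and bars are group means. For 9 entries all RUNX1-IT1 ASO points lie below all control ASO points, and for MIR296 they lie above. Among all 771 entries with a symbol, 95.7% lie fully below and 2.08% fully above.

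MIR22, named for a microRNA expressed in many tissues and studied as a brake on tumour growth, had the highest level. It stood at 33.5, 28.8 and 32.3 CPM in control ASO replicates 1, 2 and 3, against 14.4, 13.1 and 14.5 CPM in replicates 1, 2 and 3 of the RUNX1-IT1 ASO group. The groups did not overlap, and the lowest control ASO value was about double the highest RUNX1-IT1 ASO value. Means were 31.5 ± 2.42 and 14.0 ± 0.756 CPM (SD, n = 3 each), 2.25-fold lower, and the change was -1.12 ± 0.09 on the log2(CPM + 1) scale (SE, limma, adjusted p = 1.21e-07). By fold decrease MIR22 ranked 396th of the 489 tested entries, 19% of which had a smaller decrease by fold or were higher. Rescaled to equal listed totals, it was called higher, at 0.31 ± 0.08 (limma, adjusted p = 0.0133), where 43 of the 489 tested entries were called higher. Its decrease was smaller than that of the listed totals.

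MIR8085, in the BCL3 intron, stood at 12.1, 14.0 and 13.7 CPM in the control ASO libraries and at 4.76, 7.80 and 7.09 CPM in the RUNX1-IT1 ASO libraries. RUNX1-IT1 ASO replicate 1 was the low one, and the coefficient of variation in that group was 24.3%, against 9.19% from counting alone. The decrease was 2.02-fold, -0.94 ± 0.15 on the log2 scale (limma, adjusted p = 3.66e-05). MIR6732, in the ZC3H12A intron, was tighter, at 12.9, 12.9 and 11.5 CPM against 5.78, 5.22 and 6.44 CPM. It was 2.14-fold lower, with a change of -0.98 ± 0.11 (limma, adjusted p = 1.70e-06). ZC3H12A and BCL3 both belong to NF-kB biology as textbook background, and neither host has a value here. After rescaling MIR6732 stood at 0.36 and was called higher, and MIR8085 stood at 0.42 and was not called (limma, adjusted p = 0.0275 and 0.0542).

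MIR5196, at the CD22 exon boundary, had the greatest decrease by fold. It stood at 4.93, 4.46 and 4.33 CPM in the control ASO libraries and at 0.642, 0.538 and 0.996 CPM in the RUNX1-IT1 ASO libraries. The values correspond to 99, 77 and 92 implied reads against 12, 10 and 17, from the value that 1 read takes in each library. Means were 4.58 ± 0.316 and 0.725 ± 0.24 CPM, and the change was -1.70 ± 0.14 (limma, adjusted p = 7.73e-08). It ranked 59th of 489 by fold, and it was the 1 member still called lower after rescaling, at -0.80 ± 0.16 (limma, adjusted p = 0.00247). Of the 489 tested entries, 118 were called lower after rescaling, so this call is not particular to MIR5196. CD22 is a B cell gene and is not listed in the tables used here.

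MIR378D2, in the lincRNA AC084346.2, stood at 3.39, 3.01 and 3.77 CPM against 0.909, 0.807 and 0.762 CPM. It was 4.10-fold lower, with a change of -1.26 ± 0.13 (limma, adjusted p = 5.88e-07), and ranked 135th by fold. RUNX1-IT1 ASO values were close to each other, with a coefficient of variation of 9.12% where counting alone would give 25.8%. After rescaling it was no longer called, at -0.35 (limma, adjusted p = 0.067). MIR7704, in the HOXD1 coding sequence, was 3.12-fold lower, at 2.14, 1.45 and 2.12 CPM against 0.321, 0.807 and 0.703 CPM. Its lowest value, in RUNX1-IT1 ASO replicate 1, rests on 6 implied reads, the fewest of any entry in the set. The change was -0.85 ± 0.15 (limma, adjusted p = 0.000134), and after rescaling it was -0.10, not called (limma, adjusted p = 0.686). With a pseudocount of 0.1 in place of 1, the changes of MIR378D2, MIR7704 and MIR6773 grew to -1.91, -1.55 and -1.06.

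The remaining entries in introns, MIR7855, MIR6822 and MIR6773, were 2.21-, 2.45- and 2.17-fold lower. MIR7855, in SPTB, stood at 5.63, 7.30 and 6.64 CPM against 3.74, 2.47 and 2.64 CPM. MIR6822, in TTC21A, stood at 3.54, 3.53 and 2.54 CPM against 1.34, 1.18 and 1.41 CPM. MIR6773, in ESRP2, stood at 1.89, 1.79 and 1.89 CPM against 1.07, 0.860 and 0.644 CPM. In none of these did the groups overlap, and 97.1% of the 489 tested entries likewise lay fully below. Control ASO replicate 3 was the low one for MIR6822. Their changes were -0.94 ± 0.14, -0.86 ± 0.14 and -0.63 ± 0.13 (limma, adjusted p = 3.09e-05, 4.54e-05 and 0.000383). All 3 turned positive after rescaling, at 0.28, 0.15 and 0.22, and none was called.

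MIR296, named for a microRNA of the imprinted GNAS region, was the 1 entry with the higher level under the RUNX1-IT1 ASO. It stood at 0.349, 0.637 and 0.660 CPM in the control ASO libraries and at 1.02, 1.40 and 1.35 CPM in the RUNX1-IT1 ASO libraries. The values are 7, 11 and 14 implied reads against 19, 26 and 23, so counting error is large, at 30.6% of the control ASO mean and 21.0% of the RUNX1-IT1 ASO mean. Means were 0.549 ± 0.173 and 1.25 ± 0.207 CPM, and the groups did not overlap. Its mean over the 6 libraries, 0.901 CPM, was under the minimum for the test. In the fit with no filter on low values, over all 771 entries with a symbol, it rose by 0.54 ± 0.14 (limma, adjusted p = 0.00158), or by 1.09 with a pseudocount of 0.1. Rescaled to equal listed totals, again with no filter, its change was 1.30 ± 0.15 (limma, adjusted p = 2.92e-05). In the fit with no filter on CPM as deposited, 97.3% of entries were called lower and 2.46% higher, and 20 of the 771 had the higher mean.

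Of the 9 members that fell, 6 did so by less than the median tested entry, a count near the even split that a median gives. The median fold over the 489 tested entries was 2.97, and MIR5196, MIR378D2 and MIR7704 exceeded it. On the log2 scale the median change of the 9 was -0.94, beside -1.11 over all tested entries. By position, the 6 hairpins at intron ends were 2.02- to 6.31-fold lower with a median of 2.19-fold, and 5 of these 6 lay between 2.02- and 2.45-fold. Among the 4 exonic hairpins, MIR22, MIR7704 and MIR378D2 were 2.25-, 3.12- and 4.10-fold lower and MIR296 was higher. With so few entries these ranges are given as a description. The groups did not overlap for any of the 10 entries, with the RUNX1-IT1 ASO libraries below for 9 and above for 1. Among the 489 tested entries 97.1% lay fully below, and among all 771 entries with a symbol 95.7% lay fully below and 2.08% fully above.

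**Figure D3:**
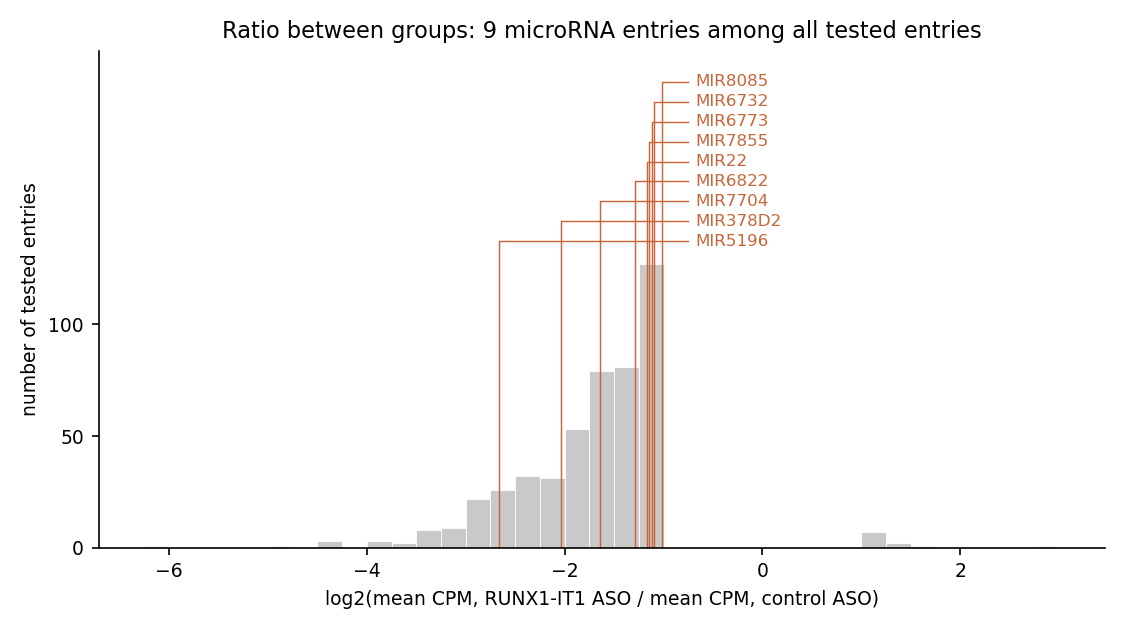
Number of tested entries (grey bars, 489 in all) by the log2 ratio of the group means in CPM, with the 9 tested microRNA entries marked by orange lines. MIR8085, at 2.02-fold, stands at the edge of the distribution nearest to 0, and MIR5196, at 6.31-fold, lies further to the left than 87.9% of the tested entries.

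**Figure D4:**
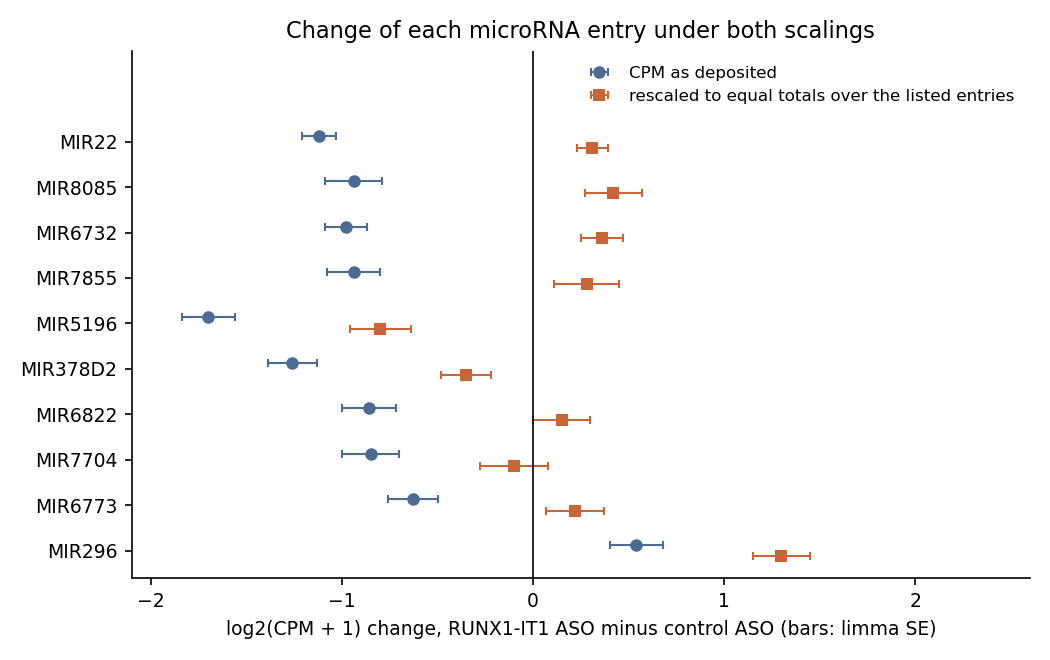
Change of each entry on the log2(CPM + 1) scale, RUNX1-IT1 ASO minus control ASO, with limma standard errors as bars. Blue points use CPM as deposited and orange points use libraries rescaled to equal totals over the listed entries. MIR22, MIR8085, MIR6732, MIR7855, MIR6822 and MIR6773 lie on opposite sides of 0 under the 2 scalings, while MIR5196, MIR378D2 and MIR7704 stay negative and MIR296 stays positive.

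Levels were compared between entries per kilobase of the hairpin. In the control ASO group the order ran from MIR22 at 371 ± 28.5 CPM per kb through MIR6732 at 207 ± 12.6, MIR8085 at 204 ± 16.1, MIR7855 at 107 ± 13.8, MIR6822 at 52.5 ± 9.37, MIR5196 at 39.8 ± 2.74, MIR378D2 at 34.6 ± 3.87, MIR7704 at 32.3 ± 6.69 and MIR6773 at 25.1 ± 0.735 to MIR296 at 6.86 ± 2.17 CPM per kb (SD, n = 3). MIR6732 and MIR8085 overlapped, and so did each neighbouring pair from MIR6822 down to MIR6773. Under the RUNX1-IT1 ASO, MIR296 moved from the lowest place to the sixth, at 15.7 ± 2.59 CPM per kb, and MIR5196 to the lowest, at 6.31 ± 2.09 CPM per kb. From MIR296 downwards in that group, neighbours overlapped.

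Set against all listed entries, the levels per kilobase of hairpin were high, but the ranks below depend on length. Division by 59 to 115 bases turns a low CPM into a high level per kilobase. Even MIR296, at 0.549 CPM in the control ASO group, came to 6.86 CPM per kb. Over 704 entries with a length in GENCODE release 29, the median control ASO level was 0.638 CPM per kb, and MIR22, MIR6732 and MIR8085 held the first 3 ranks; the entry of this name form that is not reported was left out of the ranking. In all, 9 of the 10 microRNA entries were within the first 50. When the same CPM was divided by the exonic length of the host gene, MIR22 came to 10.6, MIR8085 to 4.09, MIR6732 to 3.98 and MIR7855 to 0.441 CPM per kb, and the 10 entries had a median percentile of 59.5 among the listed entries. The deposited tables give no length and no count of reads outside the hairpin, so the stretch of RNA behind these values was not tested.

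**Figure D5:**
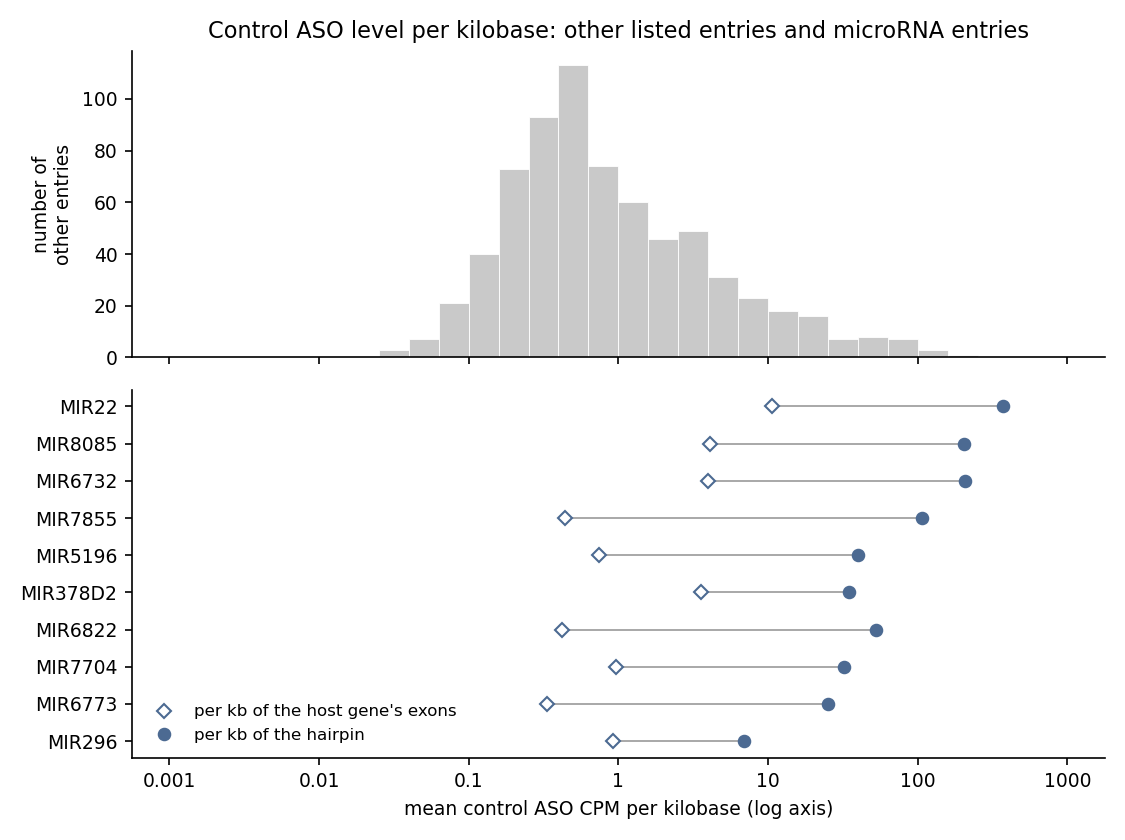
Top, number of the 693 other listed entries above 0 by mean control ASO level, in CPM per kilobase of exon on a log axis. Bottom, the 10 microRNA entries on the same axis, per kilobase of the hairpin (filled circles) and of the host gene's exons (open diamonds). MIR22, MIR6732 and MIR8085 exceed all other entries plotted on the hairpin length, and on the host length all 10 fall within the range of the other entries. Division by a short hairpin raises the level per kilobase.

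Few other genes of microRNA biology are listed, as are few genes of any kind (597 protein-coding genes, beside 19343 others). Of 35 genes for processing, export, Argonaute function, silencing and decay of microRNAs, 1 was listed, LIN28A, which binds the let-7 precursor and blocks its maturation. It stood at 3.19, 3.42 and 3.30 CPM in the control ASO libraries and at 0.214, 0.269 and 0.351 CPM in the RUNX1-IT1 ASO libraries. LIN28A was 11.9-fold lower and ranked 10th of 489 by fold, with a change of -1.75 ± 0.12 (limma, adjusted p = 2.10e-08). Its RUNX1-IT1 ASO values rest on 4, 5 and 6 implied reads, so the fold and the rank are imprecise. Of 36 microRNA host transcripts 1 was listed, MIR497HG, at 1.51 ± 0.108 against 0.421 ± 0.0668 CPM, 3.59-fold lower. Its mean of 0.967 CPM was under the minimum for the test. DROSHA, DICER1 and the Argonaute genes are not analysed here.

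Within 100000 bases of the hairpins, 2 other listed genes were found. CSRNP1, an immediate early nuclear protein gene, lies 3589 bases from MIR6822 on the opposite strand, and fell from 107 ± 4.25 to 30.7 ± 2.77 CPM, 3.47-fold (limma, adjusted p = 9.72e-10), beside 2.45-fold for MIR6822. DNALI1, an axonemal dynein gene 76630 bases from MIR6732, stood at 1.23 ± 0.311 and 0.199 ± 0.133 CPM and was under the minimum for the test. Its RUNX1-IT1 ASO values are 4, 6 and 1 implied reads. The entries whose profile over the 6 libraries lay nearest to a member, by Euclidean distance of centred log2(CPM + 1) values among 487 tested entries, were ZBTB20 for MIR6822 (0.11), SCN7A for MIR22 (0.115), RGS2 for MIR378D2 (0.117) and ZNF79 for MIR6732 (0.13). Next came ACAP1 for MIR6773 (0.137), C20orf144 for MIR7704 (0.151), CSRNP1 for MIR5196 (0.152), SLFN13 for MIR7855 (0.157) and HEY1 for MIR8085 (0.273). No member was among the 2 nearest entries of another member. A small distance on this scale does not mean a like fold, as the scale understates the change of low entries. SCN7A was 5.61-fold lower beside 2.25-fold for MIR22, and RGS2 2.57-fold beside 4.10-fold for MIR378D2. ZNF79, at 2.13-fold, was close to MIR6732, at 2.14-fold.

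The libraries held 17100000 to 21200000 implied reads. Listed entries took 1.02 to 1.11% of the CPM scale under the control ASO and 0.363 to 0.389% under the RUNX1-IT1 ASO. Neither RUNX1-IT1 nor RUNX1 is listed, so the labels could not be checked against the targeted RNA. Of 10 ovarian and epithelial markers 2 were listed, PAX8 and ESR1, and both were called lower, as were 97.5% of the 489 tested entries. ITGAM was the 1 of 5 immune markers listed, at 1.72 ± 0.113 and 0.127 ± 0.0792 CPM, and no endothelial or fibroblast marker was listed. The RUNX1-IT1 ASO values of ITGAM are 4, 2 and 1 implied reads. A marker that is not listed may still be expressed, since listed entries appear picked for a difference between the groups.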

How the data were processed

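RNA of ES2 cells was sequenced in 3 control ASO and 3 RUNX1-IT1 ASO libraries, grouped by their titles. The authors deposited 1 table per library with CPM values, a unit read from the values, which lie on even steps within 0.011 of a step. One step is taken as 1 read, worth 0.0471 to 0.0586 CPM, so a floor of 3 reads is 0.141 to 0.176 CPM. The smallest value in control ASO replicates 1, 2 and 3 lies at 2, 5 and 2 steps, so reads are called implied and no count test was run. Intervals from reads cover counting error only. Per the submitters' processing notes, GRCh38 was the build and the tools named are fastp 0.22.0 and FastQC 0.11.9. Aligner, counter, annotation and strand setting are not given in the sources used here.

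In R 4.3.3, limma 3.58.1 with a mean-variance trend was fitted to log2(CPM + 1) with group as the term, over the 489 entries with a symbol and a mean of at least 1 CPM. This scale understates the change of low entries. The 342 entries without a symbol (9.35 to 10.4% of listed CPM) stayed out. Replicates may be technical, so p-values measure the spread between these samples only. The fit was tested on simulated data. Named genes are the 10 members, listed hosts and neighbours, listed members of the fixed lists and nearest profiles, of which the nearest per member is printed. Neighbours within 100000 bases, levels per kilobase and the counts on intron ends and nested genes were chosen after seeing the data. Members and lists were chosen with earlier results of these data known. One entry of this name form is not reported here.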

Additional observations from a re-analysis of the deposited data

How the results depend on the processing

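Under 12 settings other than rescaling, all 112 recomputed changes of the 10 entries kept their direction and their side of the threshold, with the highest adjusted p at 0.012 (limma, MIR296 without RUNX1-IT1 ASO replicate 3). These settings were a pseudocount of 0.1, no filter, a mean of at least 5 CPM, entries without a symbol in the fit, no mean-variance trend, a replicate block and leaving out each library. The listed entries appear picked for a difference in these same libraries, the smallest being 1.99-fold. Unchanged directions and calls are therefore no independent support for any member. With the replicate block, 9 of 9 members were still called lower and 478 of 489 entries in all. The labels do not say whether the replicate numbers pair the libraries. Equally numbered libraries had correlations of -0.24, -0.10 and -0.02 of their deviations from the group means. Unequally numbered libraries had -0.13 to 0.18. With 3 libraries per group these values do not settle whether the libraries are paired. The block changed no member's call. Leaving out each library in turn gave 9 members called lower and 0 called higher each time. Of all 489 entries, 477 or 478 were called lower and 10 or 11 higher in these fits, so the members match the background. With no filter 1 of 10 members, MIR296, was called higher. With a mean of at least 5 CPM, 3 members were tested and 3 were called lower, as were 165 of the 165 entries tested, because fewer entries were tested. Rescaling to equal listed totals, which centres a table where nearly all entries fell (median change -0.06 in place of -1.11, with 118 lower and 43 higher calls of 489), left 1 of the 9 tested members called lower and 2 called higher. It reversed 6 members, to 0.31 for MIR22, 0.36 for MIR6732, 0.42 for MIR8085, 0.28 for MIR7855, 0.22 for MIR6773 and 0.15 for MIR6822. MIR378D2 and MIR7704 lost their calls, and MIR296, with no filter, stood at 1.30 and was called higher (limma, adjusted p = 2.92e-05). The planned comparison of members with their hosts had no values to use, so its alternatives were not run. Depth limits MIR296 and MIR7704 most, with 6 to 45 implied reads per library.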
